A study of Drosophila melanogaster with 2 samples.

Results

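The miRNAs described here are the mature products of Drosophila melanogaster whose hairpin carries a catalogue number of 2000 or above. They were chosen by name alone from the deposited count tables of 2 small RNA libraries from fly heads, and they make up 28 of 240 known mature products with at least 5 reads in either library. The 28 products come from 25 hairpins. Both libraries were made from heads of Canton-S flies, a laboratory wild-type strain, all adult females aged 3 to 5 days. The ethanol library came from flies given ethanol vapour for 15 minutes, which sedated all of them, and then 30 minutes of air without ethanol. The control library came from flies given 45 minutes of air without ethanol. Each is 1 pool of about 180 flies, with an RNA integrity number of 6.40 for ethanol and 6.80 for control, so there is 1 library per group and a difference between treatments cannot be told apart from a difference between libraries. No p-value was computed for the comparison. All intervals are at the 95% level and cover counting error alone, because there is 1 library per group. Copies of 1 molecule made by PCR could not be recognised, so the intervals may be too narrow even for counting error.

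A microRNA is cut from a hairpin in a longer transcript, by Drosha in the nucleus and then by Dicer, and guides an Argonaute protein to messenger RNAs through its seed, bases 2 to 8. Mirtrons take another route: the spliced intron itself folds into the hairpin, so splicing replaces the Drosha cut. Catalogue numbers are given in order of registration, so high numbers belong to miRNAs registered late, many of them from deep sequencing of rare small RNAs.

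The 3 products that reached 100 reads, summed over the libraries, carry most of the reads and are shown first, 5′ to 3′, with the seed in capitals. All sequences are those of the deposited tables, written with T for U.
miR-2535b-3p: aCTCACGGcatttcattcactt
miR-4960-3p: cTGGGACCttgggcttacggt
miR-4952-5p: gCCGGATCcggatgtcgcggcga

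In 3 cases the seed was also that of a product with a lower number, and these pairs are shown because a seed decides which messages a miRNA can pair with. Outside the seed the partners differ.
miR-2500-5p: gTAAGGAAcacacatatacaatacc
miR-994-5p: cTAAGGAAatagtagccgtgat
miR-4951-3p: cCATCAAAaaacctcacccacca
miR-2c-5p: tCATCAAAaagggctgaagaaagat
miR-4968-5p: tAGCTGCCacggtttgttgctt
miR-980-3p: tAGCTGCCttgtgaagggctta

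The other 25 products shared their seed with no other listed product. That is 3 of 28 (10.7%) sharing a seed, against 43 of the 212 products outside the group (20.3%), counted among themselves. The partners were more abundant in 2 of the 3 pairs. miR-4951-3p had 13 reads in the ethanol and 17 in the control library, while miR-2c-5p, from a hairpin of the miR-2 family, had 1644 reads in ethanol and 2007 in control. miR-4968-5p had 8 reads in ethanol and 7 in control, while miR-980-3p had 82 in ethanol and 91 in control. In the remaining pair the order was the other way, with miR-2500-5p at 44 reads in ethanol and 32 in control, and miR-994-5p at 6 reads in ethanol and unlisted in control.

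The group was rare in both libraries. Its products summed to 1499 of 13128478 known miRNA reads in the ethanol library, a share of 0.0114% (exact binomial interval 0.0108 to 0.0120%), and to 1468 of 13692046 in the control library, a share of 0.0107% (0.0102 to 0.0113%). With unlisted products set below 5, the median product had 10.5 reads in the ethanol and 13 in the control library, against 1272 in ethanol and 1202 in control for the 139 products outside this group and outside miR-954 to miR-1017. The range miR-954 to miR-1002 had medians of 155.5 reads in ethanol and 227.5 in control, and miR-1003 to miR-1017 had 109 in ethanol and 83 in control. Only 3 of the 28 products (10.7%) reached 100 reads over both libraries, against 37 of 54 (68.5%) for miR-954 to miR-1002 and 15 of 19 (78.9%) for miR-1003 to miR-1017. At the edge of the number rule, miR-2279-5p, just inside, had 27 reads in ethanol and 33 in control, and miR-1017-3p, just outside, had 372 in ethanol and 312 in control.

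**Figure D1:**
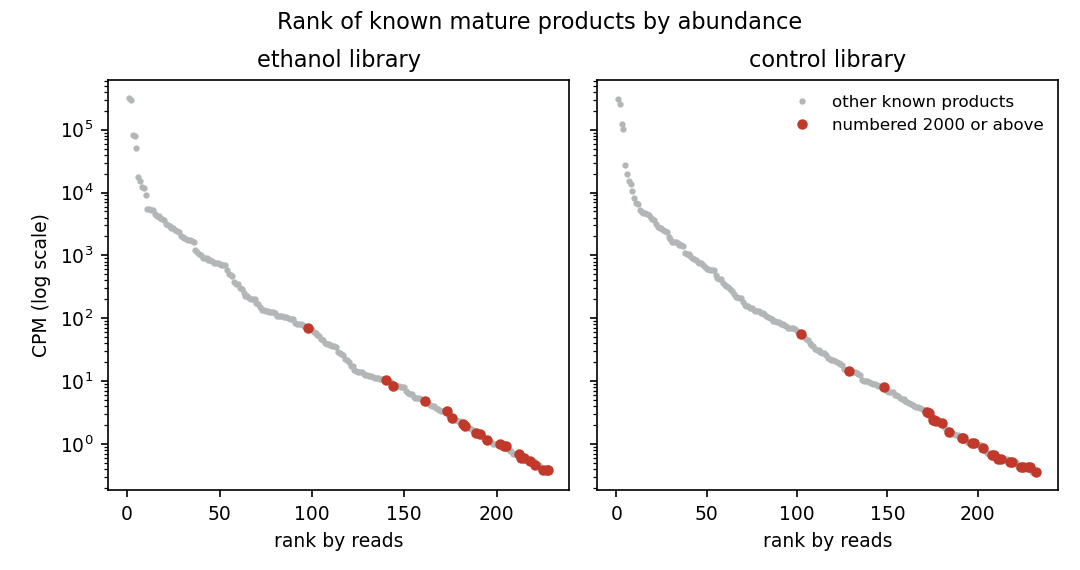
Reads scaled to 1000000 known miRNA reads (CPM) on a log scale against the rank by reads, for every known product listed in the ethanol library (left) and in the control library (right), with products numbered 2000 or above in red. The red points begin at rank 98 in the ethanol and rank 102 in the control library and crowd the low end.

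A single product led the group. miR-2535b-3p had 911 reads in the ethanol and 773 in the control library, which is 60.8% (58.2 to 63.3%) of the group's reads in ethanol and 52.7% (50.1 to 55.2%) in control. Together with miR-4960-3p and miR-4952-5p it made up 77.5% in ethanol and 73.6% in control. The other 25 products ranged from 5 to 63 reads where listed in the ethanol library and from 5 to 45 where listed in the control library. A product not listed in a library had fewer than 5 reads there or was not counted. The ethanol library listed 22 of the 28 and the control library 26, with 20 in both, 2 in ethanol alone and 6 in control alone. Of all 240 known products, 221 were listed in both libraries, 7 in ethanol alone and 12 in control alone.

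**Figure D2:**
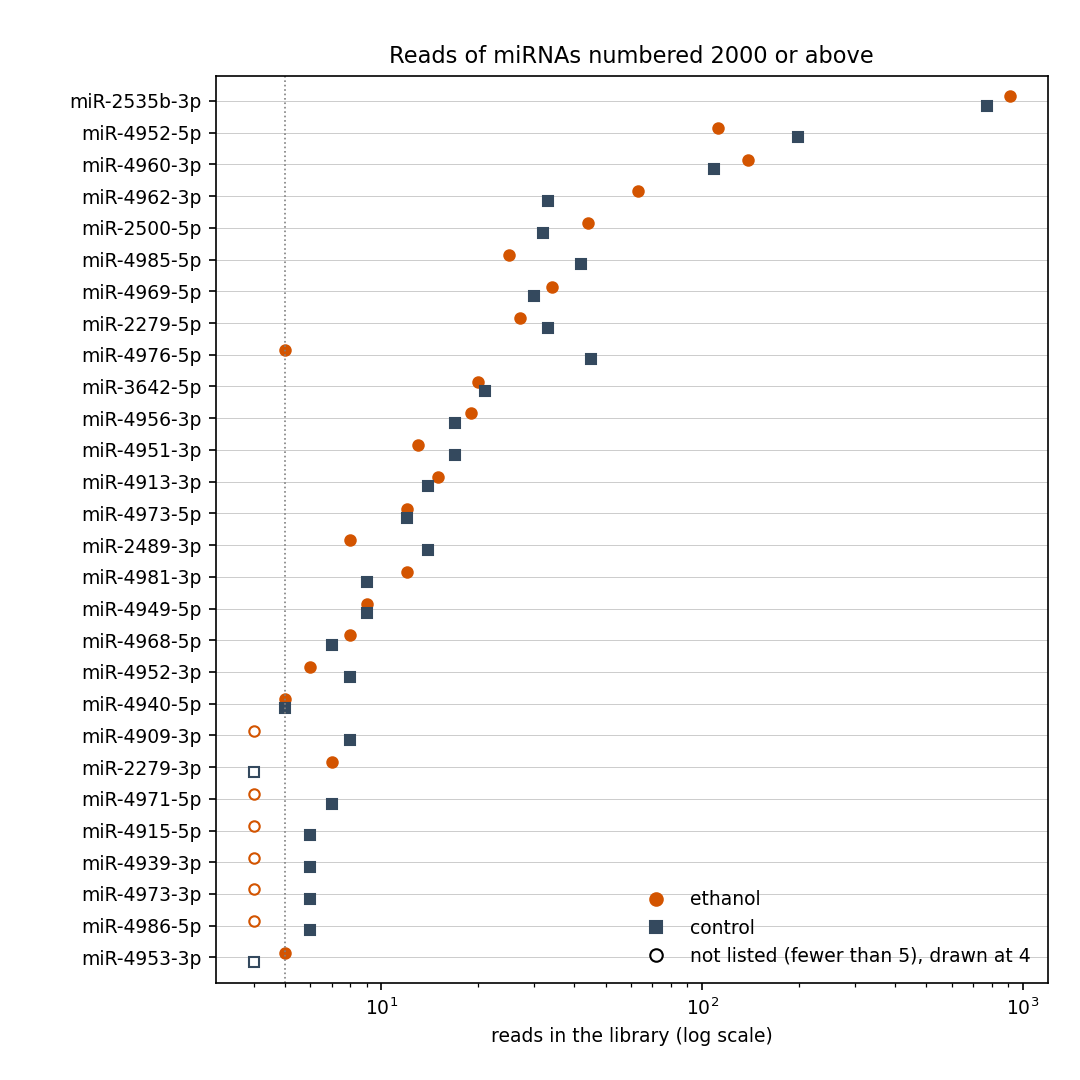
Reads of all 28 products on a log scale, with the ethanol library as orange circles and the control library as dark squares, and open marks at 4 reads where a product is not listed. miR-2535b-3p stands apart at 911 ethanol and 773 control reads, and the widest gap between libraries is that of miR-4976-5p, with 5 ethanol and 45 control reads.

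The comparison of ethanol with control asked whether the level of these miRNAs differed after the exposure. Reads were compared as CPM, and the ratio of ethanol over control was called when it reached 2 or fell to 0.5. Of the 3 products with at least 100 reads, none passed, against 6 of 168 known products (3.57%). With the minimum lowered to 20 reads, 1 of 16 passed, against 12 of 210 (5.71%). Of these 16, 9 lay above a ratio of 1 and 7 below, with a median log2 ratio of 0.11, beside -0.0064 over all 210. The counting interval lay above 1 for 3 of the 16 and below 1 for 2, against 31.9% and 32.9% of the 210. At their low counts the other 11 intervals held 1, so a difference of the size seen was not detectable at this depth.

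The product that passed was miR-4976-5p, which was lower in the ethanol library. It had 5 reads in ethanol and 45 in control, or 0.381 CPM in ethanol and 3.29 CPM in control, which is 8.63-fold lower (3.44 to 27.9). Its ethanol count equals the lowest count the tables list. Its hairpin lies on chromosome 2R at 6835533 to 6835635 (BDGP6), on the strand opposite to a coding exon of CG15236, and its product holds 31.8% guanine. It is the only one of the 28 whose hairpin overlaps a gene on the opposite strand alone. The authors' deposited table holds 11 of the 28 products and marks 1 of them as different, which is miR-4976-5p, with a log2 ratio of -3.19. That table marks 14 of its 196 known products. It gives miR-4952-5p a log2 ratio of -0.85 with a p-value of 3.59e-07 and leaves it unmarked, and its p compares the reads of these 2 libraries, not the treatments. The 17 products not in that table had at most 30 reads in the sum of the libraries.

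Just inside the threshold, miR-4962-3p was higher, with 63 reads in ethanol and 33 in control (ratio 1.99, 1.29 to 3.13). That is 4.80 CPM in ethanol and 2.41 CPM in control. miR-4960-3p had 139 reads in ethanol and 109 in control (1.33, 1.03 to 1.73), and miR-2535b-3p had a ratio of 1.23 (1.12 to 1.35). miR-4952-5p went the other way, with 112 reads in ethanol and 199 in control, 1.70-fold lower (1.34 to 2.17). Sums count a product as 0 where it is not listed, which in the ethanol library concerns 6 products with 39 control reads and in the control library 2 products with 12 ethanol reads. The summed group had a ratio of 1.06 (0.990 to 1.15), and over the 20 products listed in both libraries 1.09 (1.01 to 1.17). Without miR-2535b-3p the sum was 588 reads in ethanol and 695 in control, a ratio of 0.882 (0.789 to 0.986). With 4 reads in place of 0 that was 612 in ethanol and 703 in control, 0.908 (0.813 to 1.01), an interval that holds 1. The side of 1 on which the sum lay thus rested on miR-2535b-3p. Scaled without the 4 most abundant products of the libraries, the ratio of the whole sum was 0.979.

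In a straight line fitted over 165 known products outside the group, the log2 ratio between these libraries fell with the guanine content of the product. The slope was -0.023 log2 units per percentage point, and the scatter about the line was not computed. Guanine made up 9.09% of miR-2535b-3p, 43.5% of miR-4952-5p, 38.1% of miR-4960-3p and 47.8% of miR-4962-3p. Less this line, the log2 ratio of miR-2535b-3p was -0.053 (0.30 before), that of miR-4952-5p -0.32 (-0.77 before), that of miR-4960-3p 0.73 (0.41 before) and that of miR-4962-3p 1.54 (0.99 before). miR-4976-5p was at -2.93 (-3.11 before). The value of miR-2535b-3p thus went to the other side of 0, and that of miR-4962-3p passed 2-fold. Among rarer products, miR-4913-3p was at -0.099 (0.16 before) and miR-3642-5p at 0.59 (-0.0098 before), both across 0, and miR-4956-3p at 0.82 (0.22 before). The part of guanine content in these ratios was not tested.

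**Figure D3:**
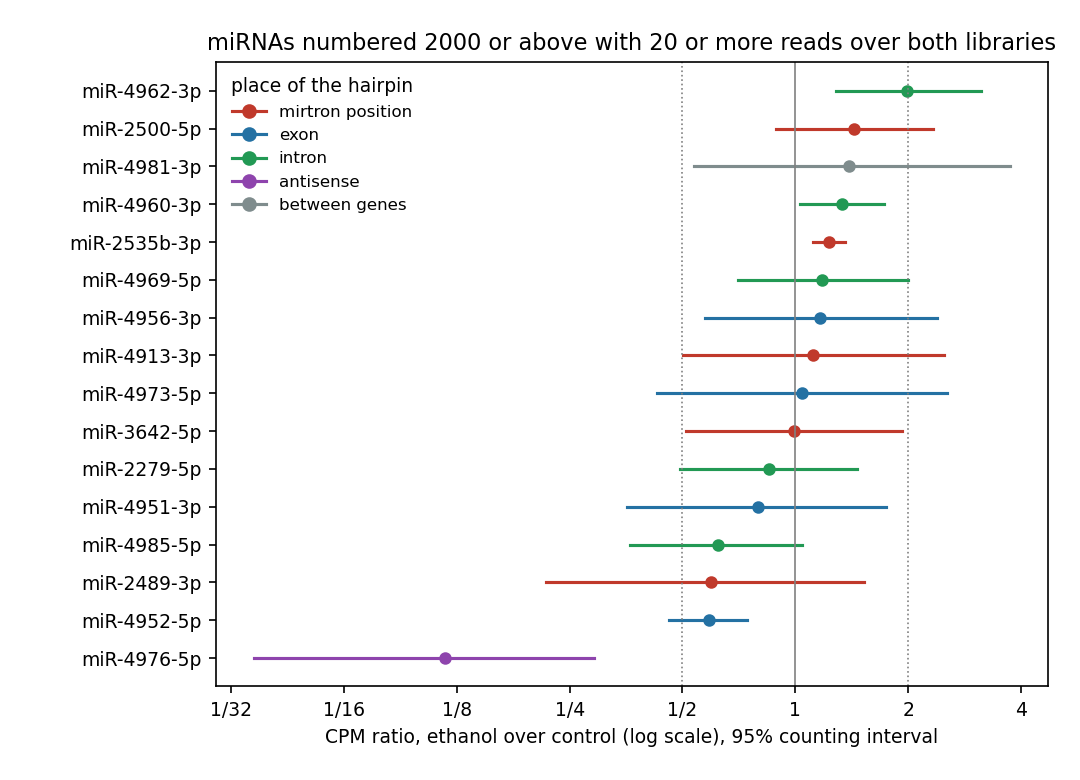
CPM ratio, ethanol over control, on a log scale with its 95% counting interval, for the 16 products with 20 or more reads over both libraries, coloured by where the hairpin lies. Dotted lines mark 2-fold either way, and only miR-4976-5p, at 0.116, lies past them, while miR-4962-3p sits at 1.99.

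Where the hairpins lie was taken from the Ensembl annotation of BDGP6 by name, and coordinates below are of that build. All 25 hairpins were found, and the length of the annotated product equalled that of the deposited sequence for 28 of 28 products. The annotation holds 110 hairpins numbered 2000 or above, and 25 of them (22.7%) had a listed product. The 110 include 24 numbered 9369 or above, of which 0 had a listed product, and whether the catalogue used for counting held them is unknown. For miR-954 to miR-1002 the count was 34 of 49 (69.4%). A hairpin was put at a mirtron position when an intron of at most 150 bases on its strand had both ends within 15 bases of the hairpin's ends. The mir-2489 hairpin, of 95 bases, met this only through the 15-base allowance, since it runs past both ends of its intron of 68 bases. The same definition took in 12 of the 13 listed hairpins from miR-1003 to miR-1017, the range that holds the classical fly mirtrons.

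**Figure D4:**
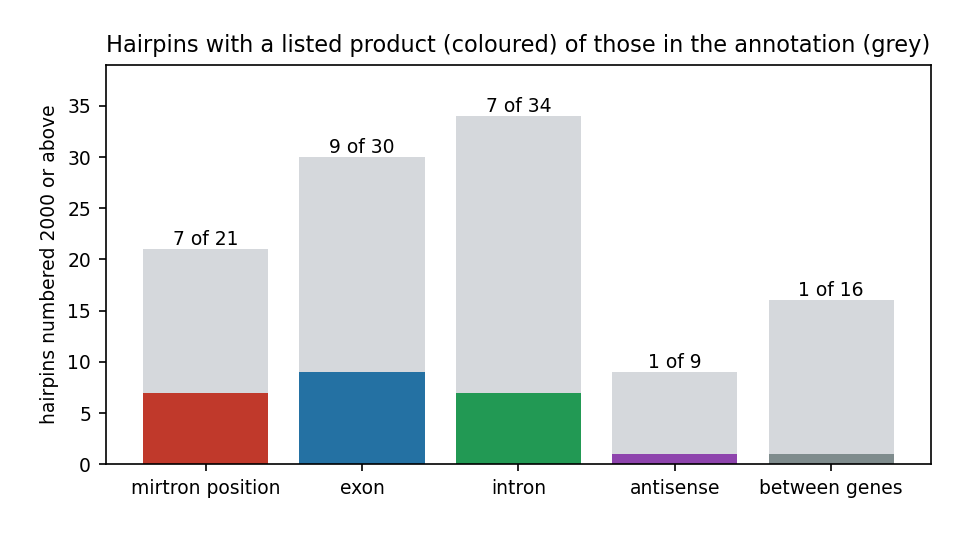
Number of hairpins numbered 2000 or above in the annotation (grey) and with a product of at least 5 reads in either library (coloured), by place. Listed hairpins were 7 of 21 at mirtron positions, 9 of 30 in exons and 7 of 34 in other introns. They were 1 of 9 antisense to a gene and 1 of 16 between genes. The grey bars include the 24 hairpins numbered 9369 or above.

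Mirtron positions held 7 of the 28 products, in introns of 58 to 118 bases, and these carried most of the reads. They summed to 998 reads in ethanol and 868 in control (ratio 1.20, 1.09 to 1.31). All 19 products of miR-1003 to miR-1017 summed to 10619 in ethanol and 6971 in control (1.59, 1.54 to 1.64). Without miR-2535b-3p the other 6 products of the group at mirtron positions had 87 in ethanol and 95 in control (0.955, 0.706 to 1.29). Over the 4 of these listed in both libraries there were 87 in ethanol and 81 in control (1.12, 0.818 to 1.54), so the side of 1 depends on the unlisted products. Their sequences show the intron's ends, so 5 of them follow with the first or last 2 bases of the intron in capitals.
miR-2500-5p: GTaaggaacacacatatacaatacc
miR-3642-5p: GTgagtgggtcgcacggagcgt
miR-4915-5p: GTgagaaaaagtagtaaattaagca
miR-2489-3p: tattgtatgttgtatttgcAGt
miR-4913-3p: attaaccaattcgaattgcttAG

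All 3 of the 5p products began at the first base of the intron, with the GT of the splice donor. Among the other 233 known products, 5 (2.15%) begin with these letters. The hairpins were picked for ends near those of an intron, and a product that starts there reads the donor's GT. The letters thus follow from the position and are no separate evidence of a mirtron, and the same holds for the acceptor's AG. Of the 4 products of the 3p arm, 3 reached the AG of the splice acceptor. miR-4913-3p and miR-4909-3p ended on it, and miR-2489-3p ran 1 base into the next exon of kuz, which encodes a metalloprotease that cleaves Notch. The exception was the most abundant of them. miR-2535b-3p lies in an intron of 71 bases of Abca3, a gene of the ABC transporter family, at chrX:21298275-21298345 on the minus strand, and ends 4 bases before the end of the intron.

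Besides miR-2535b-3p, 4 mirtron-position products had at least 20 reads in the sum of the libraries. miR-2500-5p, in CG3764, had 44 reads in ethanol and 32 in control (1.43, 0.889 to 2.34). miR-3642-5p, in Apt1, which encodes an acyl-protein thioesterase, had 20 in ethanol and 21 in control (0.993, 0.511 to 1.93). miR-4913-3p, in Culd, had 15 in ethanol and 14 in control (1.12, 0.503 to 2.50). miR-2489-3p had 8 reads in ethanol and 14 in control (0.596, 0.217 to 1.52). For each of the 4 the interval held 1, and these counts leave room for differences either way. The last 2, miR-4909-3p and miR-4915-5p, were listed in the control alone, with 8 and 6 reads, which puts their ratios at no more than 0.521 and 0.695 if the ethanol library held 4.

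Exons of annotated transcripts on the same strand held 11 products from 9 hairpins, and reads of these products have the sequence of the host transcript. For 6 of the 28 products (21.4%) the exon was coding in at least 1 transcript, against 0 of the 200 other known products that could be placed. The exon products summed to 176 reads in ethanol and 292 in control (0.629, 0.518 to 0.760), and most of the gap is that of miR-4952-5p. Without the mir-4952 hairpin the 9 others had 58 reads in ethanol and 85 in control. Of those control reads, 25 belong to 4 products unlisted in ethanol, and the 5 listed in both libraries had 58 reads in ethanol and 60 in control (1.01, 0.690 to 1.47).

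The mir-4952 hairpin lies at chr3R:22480813-22480938 in coding sequence of Nrx-1, which encodes neurexin, an adhesion protein of synapses. It was the only hairpin of the group with both arms listed in both libraries. Its 3p product had 6 reads in ethanol and 8 in control, or 5.08% of the hairpin's reads in ethanol and 3.86% in control. The odds of 3p against 5p had a ratio of 1.33 (0.371 to 4.50), ethanol over control, an interval that holds 1 and is wide. Across the 76 hairpins of the libraries with both arms listed and 100 reads on the more abundant arm, 13 (17.1%) had an arm ratio past 2-fold.

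Next in the exon class were products with 24 to 36 reads over both libraries. miR-4956-3p lies in Sxl, the switch gene of female sex determination, in an exon that is coding in some transcripts and 3′ UTR in others, and had 19 reads in ethanol and 17 in control (1.17, 0.574 to 2.39). miR-4951-3p lies in the noncoding RNA Hsromega, made in quantity after heat shock, and had 13 in ethanol and 17 in control (0.798, 0.356 to 1.74). miR-4973-5p, in a noncoding RNA on chromosome 2L, had 12 in ethanol and 12 in control (1.04, 0.429 to 2.54), and its 3p partner was listed in the control alone with 6 reads. All of these intervals held 1. The remaining exon products had at most 9 reads in a library, among them miR-4949-5p in the 5′ UTR of ATPsynC, a subunit of the ATP synthase, miR-4940-5p in the 3′ UTR of nwk, a regulator of growth at the neuromuscular synapse, and miR-4971-5p in coding sequence of msl-2, whose protein marks the male X chromosome for dosage compensation.

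Introns that did not meet the mirtron definition held 8 products from 7 hairpins, with 308 reads in ethanol and 254 in control (1.26, 1.07 to 1.5). Over the 6 of these listed in both libraries there were 296 reads in ethanol and 254 in control (1.22, 1.02 to 1.44). miR-4960-3p lies in an intron of Appl, the neuronal relative of the amyloid precursor protein gene, at chrX:569903-570003, and miR-4962-3p in an intron of Tlk, a kinase gene, at chrX:3777382-3777505. Both were above 1 with their intervals, as given above, and together they held most of the reads of these 8 products. The sum without them was not computed. miR-4969-5p, in CASK, which encodes a scaffold protein of synapses, had 34 reads in ethanol and 30 in control (1.18, 0.702 to 2.0). miR-2279-5p, in the transporter gene MFS17, had 27 in ethanol and 33 in control (0.853, 0.494 to 1.46), while its 3p partner was listed in the ethanol library alone with 7 reads. miR-4985-5p, in Fatp3, a gene of the fatty acid transport protein family, had 25 in ethanol and 42 in control, 1.61-fold lower (0.959 to 2.76). The single product between genes, miR-4981-3p, had 12 in ethanol and 9 in control (1.39, 0.538 to 3.74). The intervals of these last 4 held 1.

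The first base of the product was counted next. Most animal miRNAs begin with U, which the Argonaute protein favours. Of the 28 products, 11 (39.3%) began with U and 8 (28.6%) with G, against 27 (50.0%) and 6 (11.1%) of the 54 from miR-954 to miR-1002. Among miR-1003 to miR-1017, U made up 84.2% and G 10.5%, and among all other known products U made up 48.9% and G 6.47%. These differences were not tested. By place, U stood first in 5 of 8 products of other introns, 3 of 11 of exons and 1 of 7 at mirtron positions. Lengths ran from 21 to 25 bases with a median of 22. Guanine ranged from 0% in miR-4951-3p to 50.0%, with a median of 26.7%, against 25.0% for miR-954 to miR-1002. No product of the group could be aligned to another known product with fewer than 6 mismatches, allowing shifts of up to 4 bases, so near-identical copies among the listed products do not divide their reads.

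The tissue label was checked on miRNAs known from parts of the head. miR-124-3p of neurons had 4205 CPM in ethanol and 8113 in control, miR-210-3p of the eye 4567 in ethanol and 4379 in control, and miR-263a-5p of sense organs 9125 in ethanol and 6637 in control. Another eye miRNA, miR-7-5p, was lower, at 748 CPM in ethanol and 652 in control. The muscle miRNA miR-1-3p, at 300812 CPM in ethanol and 312711 in control, was far above all of them. Another muscle miRNA, miR-133-3p, had 858 CPM in ethanol and 1044 in control, below miR-124-3p, miR-210-3p and miR-263a-5p. The gut miRNA miR-281-2-5p had 127 CPM in ethanol and 120 in control, and miR-281-1-5p had 8.15 in ethanol and 8.55 in control. Markers of gonad and early embryo had at most 90 reads in a library, and miR-313-3p and miR-309-3p were not listed. The ethanol-over-control ratio was 0.518 for miR-124-3p. Of the gonad markers, it was 3.26 for miR-310-3p (25 reads in ethanol, 8 in control) and 1.62 for miR-312-3p (90 in ethanol, 58 in control). The gonad marker miR-311-3p had 9 reads in ethanol and was unlisted in control. Of the embryonic markers, miR-6-3p had 37 reads in ethanol and 10 in control, a ratio of 3.86. The embryonic miR-3-3p had 8 reads in ethanol and 8 in control (1.04). Fewer cells of a type and less RNA per cell cannot be told apart in whole heads, and the part of cell makeup in the ratios of the group was not tested.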

How the data were processed

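Small RNA of 18 to 30 nt was sequenced from 1 ethanol and 1 control library on an Illumina HiSeq 2000, per the labels' protocols. The deposited counts are reads per mature miRNA, and the lowest listed is 5. The authors' RPM values are scaled to 1000000 of a total of 17600983 (ethanol) and 17337082 (control) reads; which reads that total holds is not stated. The authors' deposited table adds a log2 ratio and a p-value by a test that is likewise not stated. Per the submitters' processing notes, BDGP5 was the genome build. Aligner and counting tool: not given in the sources used. The files hold no coordinates, and those printed are of BDGP6, from the Ensembl annotation matched by name.

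The largest count was kept for each of 6 repeated names, none of which belongs to the group, and 1 sequence listed both as miR-276a-5p and as miR-276b-5p was used once. Counts were scaled to CPM of known miRNA reads. Ratios carry exact conditional binomial (Clopper-Pearson) intervals, which were tested on simulated data with known ratios, and arm ratios carry exact conditional intervals of the odds ratio. A product unlisted in 1 library counts as 0 in sums, and bounds of its own ratio use 4 reads. edgeR 4.0.16 TMM and DESeq2 1.42.0 size factors served as alternative scalings only, since their tests need replicates (R 4.3.3). Intervals came from SciPy 1.17.1 and tables from pandas 2.3.3, under Python 3.11.15 with numpy 2.4.6.

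The rule was to name every product of the group with 20 reads or more in the sum of the libraries, the other arm of its hairpin, and products listed in 1 library alone with 10 reads or more, of which there were 0. Alternatives were other scalings, read minimums and folds, the sum of repeated names and a guanine correction. The group, lists and thresholds were chosen with earlier results of these data known. The definition of a mirtron position, and naming products under 20 reads, came after the values were seen.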

Additional observations from a re-analysis of the deposited data

How the results depend on the processing

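The count of products past 2-fold was 0 of 3 under RPM, TMM, DESeq2 size factors, CPM without the 4 most abundant products and the sum of repeated names. It was 1 with a minimum of 20 reads (of 16), of 10 reads (of 20) or no minimum (of 20), each time miR-4976-5p. Over all known products compared, 12 of 210 passed with a minimum of 20 reads. With 10 reads or no minimum, 7 of 221 passed as higher and 5 as lower. At 1.5-fold miR-4952-5p passed (1 of 3). The count over all products was not computed at that fold, so this has no background and says nothing about the group. The median log2 ratio, 0.30 over 3 products, was 0.11 with 20 reads and 0.061 with 10 reads or no minimum, where more products of low count enter. The summed ratio of 1.06 was 0.979 with CPM without the 4 most abundant products, a scaling that lowers every log2 ratio by the same amount (shift -0.12). Of 96 values of single products under the scalings and the guanine line, 94 stayed within their counting interval. Each scaling moves every product by the same amount, with -0.12 the largest shift, too small to leave any of these intervals. Only the guanine line moves products by different amounts. Of its 16 values, 2 left their interval, those of miR-2535b-3p and miR-4952-5p given above. Neither alternative for the arm ratio of mir-4952 could change it, since no product of the group repeats a name and both arms already have 5 reads in each library. With alternatives chosen after seeing the data, the summed ratio was 1.09 over products listed in both libraries and 1.08 with 4 reads for an unlisted product, both with intervals above 1 (1.01 to 1.17 and 1.001 to 1.16). No paired analysis was possible because there is 1 library per group, and for the same reason none could be left out. Depth is a limit: 25 of 28 products have under 100 reads over both libraries.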

Other observations

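The products numbered 2000 or above fall into bands of the catalogue. Hairpins numbered 2279 to 2535 in the annotation had 4 of 19 with a listed product, those from 3641 to 3645 had 1 of 5, and those from 4908 to 4987 had 20 of 62. None of the 24 hairpins numbered 9369 or above had one. The release of the miRNA catalogue used for counting is not stated in the sources used here, so whether it held them is unknown.

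Products of low count were set beside others of like depth. With 20 to 99 reads over both libraries, 1 of 13 products of the group (7.69%) and 5 of 29 others (17.2%) lay past 2-fold, and the median absolute log2 ratio was 0.33 for the group and 0.57 for the others. This was looked at after the values were seen, and the difference was not tested. The lowest ratio in that range of depth was 0.116 in the group, that of miR-4976-5p, and 0.274 among the others.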
